A study of Mus musculus with 2 samples.

Results

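Matrix metalloproteinases, ADAMTS proteases and the tissue inhibitors that restrain them were followed across the cells of the mouse bone marrow stroma. The set held 10 genes of 28006 features, chosen by symbol with earlier results of these data known. They were Mmp2, Mmp9, Mmp11, Mmp13, Mmp14, Adamts1, Adamts5, Timp1, Timp2 and Timp3. Femurs of 2 mice, aged 28 days after birth, each gave 1 single-cell RNA library, so all samples formed 1 group and the comparisons were between classes of cells. Both mice were Cxcl12(GFP/+), which places GFP at 1 allele of the chemokine gene Cxcl12, and both carried Cxcl12-iCreER and R26R(tdTomato/+) and received tamoxifen at postnatal day 21. The creER gene sat in a bacterial artificial chromosome with Cxcl12 sequences, so recombination marks cells where that transgene was active and their descendants. The cell label names GFP+ bone marrow mesenchymal cells, while a protocol field names tdTomato+ cells as those sorted. The libraries were treated as GFP+ sorts.

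Matrix metalloproteinases are zinc enzymes, mostly secreted as inactive precursors, that cut collagens and other matrix proteins outside the cell. ADAMTS proteases are related secreted enzymes that cut proteoglycans such as aggrecan and versican. The TIMP proteins bind the active site of these enzymes and block it, and TIMP2 also bridges the membrane enzyme MMP14 to the precursor of MMP2, which MMP14 then activates. In bone, these enzymes are known for removing cartilage and osteoid matrix during growth and remodelling.

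A barcode counted as a cell from 1000 detected genes upward if mitochondrial genes took no more than 15% of its UMIs, where a UMI (unique molecular identifier) counts 1 captured transcript. They numbered 2750 in Mouse #1 and 4582 in Mouse #2, from 54940400 and 88790688 UMIs, with median depths of 12966.5 and 12190 UMIs per cell. The libraries shared 7 cell barcodes. Clustering without the 10 genes gave 17 clusters, named from marker genes that also left out the 10. Reticular-like cells, marked by Adipoq and Lpl, were 940 and 2346 cells. Preosteoblast-like cells, marked by Alpl and Postn, were 405 and 790, and periosteal-like cells, marked by Aspn and Mfap5, were 76 and 230. The periosteal-like cluster raised 6 of 8 periosteal markers and also 3 preosteoblast markers. Endothelial-like cells numbered 150 and 136, and myeloid-like cells 375 and 339. Myeloid-like, lymphoid-like and erythroid-like cells are blood cells that the label of mesenchymal cells does not name. Levels are in CPM, the usual scaling of a gene's UMIs to all UMIs of a class in 1 mouse, and the order of values is Mouse #1, then Mouse #2. Each class compared had n = 2 mice, and the classes of a comparison came from the same animals. The tests rest on the spread between these 2 animals, moderated over all genes, and the main tests did not pair classes by mouse. A difference was called at a Benjamini-Hochberg adjusted p under 0.05 in edgeR's quasi-likelihood test over all genes tested.

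The stretches of DNA just before the transcription start of Mmp13, Mmp14 and Adamts1 are shown because these genes split the stromal classes in different ways. They are the 250 bases before the start in RefSeq on GRCm38.p6, and 7 of the 10 genes had an entry. Capitals mark the AP-1 motif TGANTCA, the Runx motif ACCACA and the short CRE site TGACG, searched on both strands, with no overlap between matches here. The places are chr9:7272264-7272513 on the plus strand for Mmp13, chr14:54431348-54431597 on the plus strand for Mmp14 and chr16:85803114-85803363 on the minus strand for Adamts1.
Mmp13: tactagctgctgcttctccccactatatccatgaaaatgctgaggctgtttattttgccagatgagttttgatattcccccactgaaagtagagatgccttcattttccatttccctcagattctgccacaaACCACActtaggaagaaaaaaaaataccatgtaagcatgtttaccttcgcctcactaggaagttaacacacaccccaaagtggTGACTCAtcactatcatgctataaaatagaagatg
Mmp14: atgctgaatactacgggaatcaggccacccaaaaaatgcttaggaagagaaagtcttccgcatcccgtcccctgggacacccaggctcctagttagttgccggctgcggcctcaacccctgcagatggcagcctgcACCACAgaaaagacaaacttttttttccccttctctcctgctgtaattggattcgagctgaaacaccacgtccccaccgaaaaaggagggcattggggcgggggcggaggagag
Adamts1: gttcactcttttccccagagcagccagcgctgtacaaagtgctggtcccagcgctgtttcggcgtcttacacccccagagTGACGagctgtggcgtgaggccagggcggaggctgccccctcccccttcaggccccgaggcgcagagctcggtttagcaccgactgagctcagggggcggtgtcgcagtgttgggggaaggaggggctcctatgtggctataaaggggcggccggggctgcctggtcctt
The Mmp13 window held the AP-1 motif 35 to 29 bases before the start and the Runx motif 118 to 113 bases before it. AP-1 factors are dimers of Fos and Jun proteins, and RUNX2 is the Runx factor that osteoblasts need. The Mmp14 window held the Runx motif 114 to 109 bases before the start, and the Adamts1 window held the short CRE site at 170 to 166 bases. Timp1 held a short CRE site 84 to 80 bases before its start, and Mmp11, Timp2 and Timp3 held none of the 3 motifs in this window. Over 32851 promoter windows of the same length, 6.75% held the AP-1 motif, 14.0% the Runx motif and 17.8% the short CRE site. Mmp2, Mmp9 and Adamts5 had no entry. A match of letters is a description of the window.

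Mmp13, the collagenase of cartilage and bone matrix (chr9:7272514-7283331), was most abundant in preosteoblast-like cells. Its level there was 2785 and 1957 CPM, against 488 and 561 CPM in reticular-like cells and 306 and 502 CPM in periosteal-like cells. Preosteoblast-like and reticular-like values did not overlap between the mice, while reticular-like and periosteal-like values did. The log2 difference from reticular-like cells was 2.12 ± 0.19 (SE; edgeR adjusted p = 0.00185) in preosteoblast-like cells and -0.27 ± 0.22 (edgeR adjusted p = 0.426) in periosteal-like cells. The preosteoblast-like level is a mean over unlike clusters. At the finer clustering resolution of 1.0 the preosteoblast-like cluster led by Spp1 held 3577 and 3708 CPM. That led by Kcnk2 held 2105 and 1655 CPM and that led by Omd 2445 and 1074 CPM. In Mouse #2, 3170 of the 28338 preosteoblast-like UMIs came from 1 cell. An unnamed cluster led by Acta2 held 2186 and 952 CPM. Mature osteoblast-like cells, 14 and 62 cells led by Bglap, held 63.2 and 36.6 CPM. In those cells 29 of 33 UMIs and 69 of 102 UMIs came from a single cell of each mouse.

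Free RNA has to be read beside these levels. Barcodes of 1 to 100 UMIs, which hold no cell, gave 1020 and 781 CPM of Mmp13, between the preosteoblast-like and the reticular-like level. The same barcodes were above the reticular-like level in both mice for Mmp2 (102 and 192 CPM), Mmp9 (79.6 and 47.5 CPM), Timp1 (66.8 and 80.5 CPM) and Timp3 (121 and 191 CPM). The part of free RNA in the reticular-like levels was not tested. Lymphoid-like and erythroid-like cells together, which should lack Mmp13, gave 49.9 and 71.0 CPM of it. After thinning each cell to 2000 UMIs, Mmp13 was detected in 81.0% (95% Wilson interval 76.9 to 84.5%) and 57.2% (53.7 to 60.6%) of preosteoblast-like cells. Reticular-like cells gave 36.0% and 45.6%, and the lymphoid-like and erythroid-like cells 7.76% and 5.95%. Among endothelial-like cells 6 of 150 and 5 of 136 had a UMI, which is no more than the background share. Before thinning, the median reticular-like cell had 11598.5 and 11469.5 UMIs, and 64.8% and 78.2% of these cells had Mmp13. For the background classes the median was 6934 and 7834 UMIs, with Mmp13 in 19.3% and 24.5% of cells. Intervals cover counting error only.

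Mmp2 (gelatinase A, chr8:92827291-92853420), which cuts denatured collagen and basement membrane collagen, was lowest in reticular-like and highest in periosteal-like cells among the stromal classes. Reticular-like cells held 65.5 and 71.2 CPM. The level was 219 and 374 CPM in preosteoblast-like cells and 647 and 878 CPM in periosteal-like cells. The mice did not overlap between any of these classes. The log2 difference from reticular-like cells was 2.07 ± 0.27 (edgeR adjusted p = 0.00489) in preosteoblast-like and 3.58 ± 0.17 (edgeR adjusted p = 7.53e-05) in periosteal-like cells. Mature osteoblast-like cells held 433 and 655 CPM, while their Mmp13 was low, as given above.

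Mmp14, the membrane-anchored enzyme that activates the MMP2 precursor (chr14:54431612-54445364), followed the same order over reticular-like, preosteoblast-like and periosteal-like cells, with smaller steps. Reticular-like cells held 270 and 263 CPM, preosteoblast-like cells 466 and 489 CPM, periosteal-like cells 514 and 613 CPM, endothelial-like cells 118 and 147 CPM and myeloid-like cells 23.5 and 42.1 CPM. No neighbours in this order of 5 classes overlapped between the mice. Mature osteoblast-like cells departed from the pattern of Mmp2, with 168 and 233 CPM of Mmp14, below reticular-like cells in both mice. Its log2 difference from reticular-like cells was 0.79 ± 0.094 (edgeR adjusted p = 0.00376) in preosteoblast-like and 1.18 ± 0.12 (edgeR adjusted p = 0.00107) in periosteal-like cells. Endothelial-like cells showed Mmp14 in 15.3% and 17.6% of thinned cells, above the 2.59% and 2.70% of lymphoid-like and erythroid-like cells.

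Mmp9 (gelatinase B, chr2:164940780-164955850), a product of neutrophils and of osteoclasts, was highest in myeloid-like cells, at 454 and 498 CPM against 16.9 and 6.98 CPM in reticular-like cells. The log2 difference was 5.78 ± 0.43 (edgeR adjusted p = 8.19e-05). The reticular-like level is low, and in Mouse #1 103 of its 195 UMIs came from 1 cell. Without the highest cell of each mouse it was 7.98 and 6.22 CPM. Lymphoid-like and erythroid-like cells together held 1.27 and 8.67 CPM, so reticular-like cells were above this background in Mouse #1 and below it in Mouse #2. The Mmp9 differences of other classes given below use the same reticular-like reference. Within the myeloid-like class the gene lay in the granulocyte-like cluster led by Retnlg, a gene of mature neutrophils, at 1012 and 885 CPM. The granulocyte-like cluster led by Elane, a gene of early granule formation, held 0.570 CPM and 0 CPM, from 48 and 21 cells, with an upper 95% Poisson limit of 3.46 CPM for the latter. This value depended on where the clusters were divided. At resolution 1.0 the cluster led by Elane took in 89 and 57 cells and held 39.3 and 40.5 CPM of Mmp9, against 1449 CPM or more in either mouse in the other granulocyte-like clusters. After thinning, 61.2% and 67.5% of granulocyte-like cells had an Mmp9 UMI, against 0.575% and 0.541% of lymphoid-like and erythroid-like cells.

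Preosteoblast-like cells also carried Mmp9, but a few cells set the level. The class held 199 and 170 CPM, with 1413 and 2458 UMIs, of which 944 and 1943 UMIs (66.8% and 79.0%) came from 1 cell in each mouse. Without that cell the level was 66.3 and 35.7 CPM. The log2 difference from reticular-like cells was 3.99 ± 0.38 (edgeR adjusted p = 0.00202), and 2.81 (edgeR adjusted p = 0.00350) when the highest cell of each gene was left out of each sum. After thinning, 3.70% and 2.03% of preosteoblast-like cells had an Mmp9 UMI, against 0.854% and 1.15% of reticular-like cells. At resolution 1.0 the preosteoblast-like cluster led by Spp1 held 456 and 580 CPM of Mmp9. The preosteoblast-like cluster led by Kcnk2 held 32.8 and 7.61 CPM and that led by Omd 8.15 and 4.20 CPM.

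The cells with the most Mmp9 were examined after their values were seen. In both mice together 7 cells held at least 100 Mmp9 UMIs, and 5 of them were preosteoblast-like. The highest cell of Mouse #2 held 1943 Mmp9 and 3170 Mmp13 UMIs among 54358, with 394 of Spp1, a bone matrix phosphoprotein gene, and 928 of Fabp5, a fatty acid binding protein gene. The highest cell of Mouse #1 held 944 Mmp9 and 844 Mmp13 UMIs among 39139, with 303 of Spp1 and 602 of Fabp5. Neither cell had a UMI of Alpl, of the leukocyte gene Ptprc or of the osteoclast gene Acp5. Col1a1, like Alpl a marker of the preosteoblast-like class, gave 6 UMIs in the cell of Mouse #1 and 2 in that of Mouse #2. Ctsk gave 5 UMIs in the cell of Mouse #1 and 37 in that of Mouse #2. A monocyte or macrophage-like cell of Mouse #1 held 357 of the 453 Mmp9 UMIs of its class, with 981 UMIs of Acp5, 1113 of Ctsk and none of Mmp13. None of the 7 cells was among the highest doublet scores. Of the preosteoblast-like cells with any Mmp9 UMI, 0 of 41 in Mouse #1 and 18.2% of 55 in Mouse #2 were among those scores, against 3.30% and 5.58% of the cells without one.

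**Figure D1:**
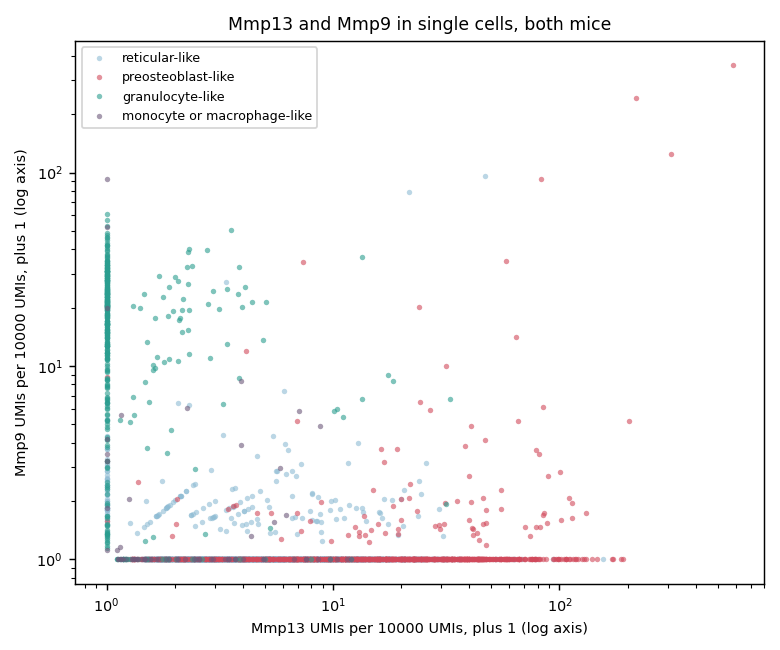
Mmp13 (x axis) against Mmp9 (y axis) in single cells of both mice, each as UMIs per 10000 UMIs of the cell plus 1 on log axes, for cells of 4 classes that had a UMI of either gene. Granulocyte-like cells spread upward along the Mmp9 axis, preosteoblast-like cells spread along the Mmp13 axis, and a few preosteoblast-like cells were high for both genes.

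Mmp11 (stromelysin 3, chr10:75923222-75936496), which differs from most of the family in being activated inside the cell, was a low transcript. Reticular-like cells held 47.3 and 28.6 CPM, preosteoblast-like cells 36.7 and 18.8 CPM and periosteal-like cells 14.6 and 20.3 CPM. Mouse #1 was above Mouse #2 in the first 2 of these classes, and neighbours in this order overlapped between the mice. Neither difference from reticular-like cells was called: the log2 values were -0.52 ± 0.35 (edgeR adjusted p = 0.317) and -0.93 ± 0.31 (edgeR adjusted p = 0.0750). With the mouse as a block they were -0.54 (edgeR adjusted p = 0.00924) and -0.82 (edgeR adjusted p = 0.0219), which passed. Endothelial-like and myeloid-like cells held at most 3.67 CPM of Mmp11, below the 4.73 and 5.17 CPM of lymphoid-like and erythroid-like cells. That background was uneven, with 11.5 and 8.22 CPM in lymphoid-like and 0.586 and 3.77 CPM in erythroid-like cells. Whether lymphoid-like cells express Mmp11 was not tested.

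Adamts1 and Adamts5, which both cut proteoglycans, are neighbours on chromosome 16 and lie 53059 bases apart on the minus strand (chr16:85793827-85803113 and chr16:85856173-85901828). Between reticular-like and preosteoblast-like cells they went opposite ways. Adamts1 was at 409 and 623 CPM in reticular-like cells and at 162 and 206 CPM in preosteoblast-like cells, and the mice did not overlap. The log2 difference was -1.54 ± 0.25 (edgeR adjusted p = 0.00965). Adamts5 was at 145 and 122 CPM in reticular-like cells and at 325 and 298 CPM in preosteoblast-like cells, again without overlap, with a log2 difference of 1.17 ± 0.11 (edgeR adjusted p = 0.00182). Both were higher in periosteal-like than in reticular-like cells, Adamts5 by 1.52 ± 0.17 (edgeR adjusted p = 0.00164) and Adamts1 by 0.74 ± 0.21 (edgeR adjusted p = 0.0481) on the log2 scale. The Adamts1 call ended under 4 of 12 alternatives, where the adjusted p reached up to 0.0708. At resolution 1.0 the preosteoblast-like clusters differed in Adamts1. It was at 55.3 and 88.6 CPM in that led by Kcnk2, 177 and 170 CPM (Omd) and 254 and 341 CPM (Spp1).

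Among reticular-like cells Adamts1 was uneven. The cluster led by Ccl2 held 504 and 693 CPM, the cluster led by Bmp4 170 and 273 CPM, and the cluster led by the heat shock gene Hspa1a 591 and 770 CPM. An unnamed cluster led by Rgs16, which carried all 8 reticular markers and 317 and 92 cells, held 792 and 1096 CPM. The clusters with more Adamts1 were also those with more RNA of immediate early genes, the genes of the Fos, Jun and Egr families that respond within minutes to stimulation or handling. These genes took 0.975% and 0.901% of UMIs in the Ccl2 cluster, 0.613% and 0.672% in the Bmp4 cluster, 2.19% and 2.02% in the Hspa1a cluster and 2.56% and 2.54% in the Rgs16 cluster. Preosteoblast-like cells were at 0.543% and 0.637%, and 11 of 12 immediate early genes were lower there than in reticular-like cells. Over all 12725 genes tested, 15.2% were lower. Whether Adamts1 is linked to immediate early genes was not tested. The cut for leaving out cells of highest immediate early share was set within each class and mouse. It does not make the classes alike in that share, so it cannot decide this question. With those cells left out, the log2 difference of Adamts1 was -1.85 (edgeR adjusted p = 0.00695). With the Rgs16 cluster added to reticular-like cells it was -1.73 (edgeR adjusted p = 0.00190).

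Adamts5 divided the endothelial-like clusters. The cluster led by Stab2 and Selp, genes of the scavenger receptor stabilin-2 and of P-selectin that mark sinusoidal and venous endothelium, held 3012 and 2579 CPM in 28 and 27 cells. The cluster led by Ly6c1 and Cav1, with 122 and 109 cells, held 13.1 and 37.1 CPM. Lymphoid-like and erythroid-like cells together held 11.6 and 23.3 CPM, so the Ly6c1 cluster was above this background in both mice. In Mouse #1 the Poisson intervals overlapped, at 7.91 to 20.5 CPM in the Ly6c1 cluster and 8.97 to 14.9 CPM in the background. Lymphoid-like cells alone held 20.6 and 19.8 CPM, so the Ly6c1 cluster was below them in Mouse #1 and above them in Mouse #2. Only 40 and 45 of the endothelial-like cells had an Adamts5 UMI, so the class level of 738 and 605 CPM is a mean over unlike clusters. Adamts1 was present in both clusters, at 1154 and 1179 CPM in the Stab2 cluster and 870 and 610 CPM in the Ly6c1 cluster. The clusters were drawn from these cells, so the contrast between them is a description without a test.

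Timp3 (chr10:86300372-86349506), the inhibitor that stays bound to the matrix and also blocks ADAM and ADAMTS proteases, was highest in endothelial-like cells at 1375 and 1224 CPM. Unlike Adamts5, it was abundant in both endothelial-like clusters, with 1315 and 1139 CPM in the Ly6c1 cluster and 1563 and 1519 CPM in the Stab2 cluster. Periosteal-like cells held 487 and 1131 CPM, preosteoblast-like cells 264 and 434 CPM and reticular-like cells 22.3 and 62.2 CPM. Mouse #2 was above Mouse #1 in all 3 stromal classes, and classes next to each other in this order did not overlap between the mice, except that reticular-like overlapped with myeloid-like cells. The log2 differences from reticular-like cells were 4.87 ± 0.48 (edgeR adjusted p = 0.000284) in endothelial-like, 4.33 ± 0.60 (edgeR adjusted p = 0.00371) in periosteal-like and 2.96 ± 0.52 (edgeR adjusted p = 0.0125) in preosteoblast-like cells. Thinned to 2000 UMIs, 75.3% and 80.9% of endothelial-like and 3.09% and 7.98% of reticular-like cells had a Timp3 UMI, against 0.862% and 2.97% of lymphoid-like and erythroid-like cells. Before thinning these shares were 98.0% and 98.5%, 8.94% and 24.4%, and 2.30% and 10.2%. The reticular-like level of Timp3 was also below that of free RNA, as given above. The preosteoblast-like level of Timp3 is a mean over unlike clusters. At resolution 1.0 the preosteoblast-like cluster led by Kcnk2 held 56.4 and 147 CPM. The cluster led by Omd held 569 and 582 CPM, in 68 and 318 cells, and that led by Spp1 305 and 388 CPM. Timp3 lies inside the gene Syn3 on the opposite strand. The sources used here do not say whether counting used the strand.

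Timp1 (chrX:20870166-20874735), a secreted inhibitor of most metalloproteinases, followed the order of Mmp2. Reticular-like cells held 19.2 and 30.6 CPM, preosteoblast-like cells 172 and 228 CPM and periosteal-like cells 415 and 346 CPM, and the mice did not overlap between classes. The log2 differences were 2.93 ± 0.27 (edgeR adjusted p = 0.00187) and 4.01 ± 0.25 (edgeR adjusted p = 0.000194). Mature osteoblast-like cells held 270 and 303 CPM. At resolution 1.0 the preosteoblast-like clusters were unlike. Timp1 was at 50.7 and 54.9 CPM in that led by Kcnk2, 340 and 234 CPM (Omd) and 203 and 350 CPM (Spp1). In the endothelial-like Stab2 cluster Timp1 was at 54.2 and 37.5 CPM, against 2.76 and 10.8 CPM in the Ly6c1 cluster. These levels rest on 25 and 16 UMIs in the Stab2 cluster and 4 and 16 UMIs in the Ly6c1 cluster. In Mouse #1, 15 of the 29 endothelial-like Timp1 UMIs came from 1 cell, which is more than the Ly6c1 cluster held. Timp1 overlaps Syn1 on the opposite strand, and Mmp11 overlaps Chchd10 in the same way. Timp2 overlaps Cep295nl on the same strand, where strand could not separate the reads. The levels of these genes are uncertain to that extent.

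Timp2 (chr11:118301069-118355740), the inhibitor that joins MMP14 to the MMP2 precursor, stood at nearly the same level in reticular-like and preosteoblast-like cells. Reticular-like cells held 461 and 467 CPM and preosteoblast-like cells 458 and 464 CPM, values that overlapped between the mice. Periosteal-like cells held 1119 and 1023 CPM. The log2 difference was -0.06 ± 0.093 (edgeR adjusted p = 0.674) in preosteoblast-like and 1.31 ± 0.11 (edgeR adjusted p = 0.000584) in periosteal-like cells. Timp2 was also detected in blood cells other than the background classes. After thinning it was found in 31.2% and 31.0% of granulocyte-like cells, 16.2% and 32.2% of monocyte or macrophage-like cells and 4.31% and 3.78% of lymphoid-like and erythroid-like cells. The granulocyte-like clusters were unlike at resolution 1.0. That led by Il1b held 409 and 497 CPM of Timp2, that led by Stfa3 242 and 294 CPM and that led by Elane 27.4 and 38.3 CPM.

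**Figure D2:**
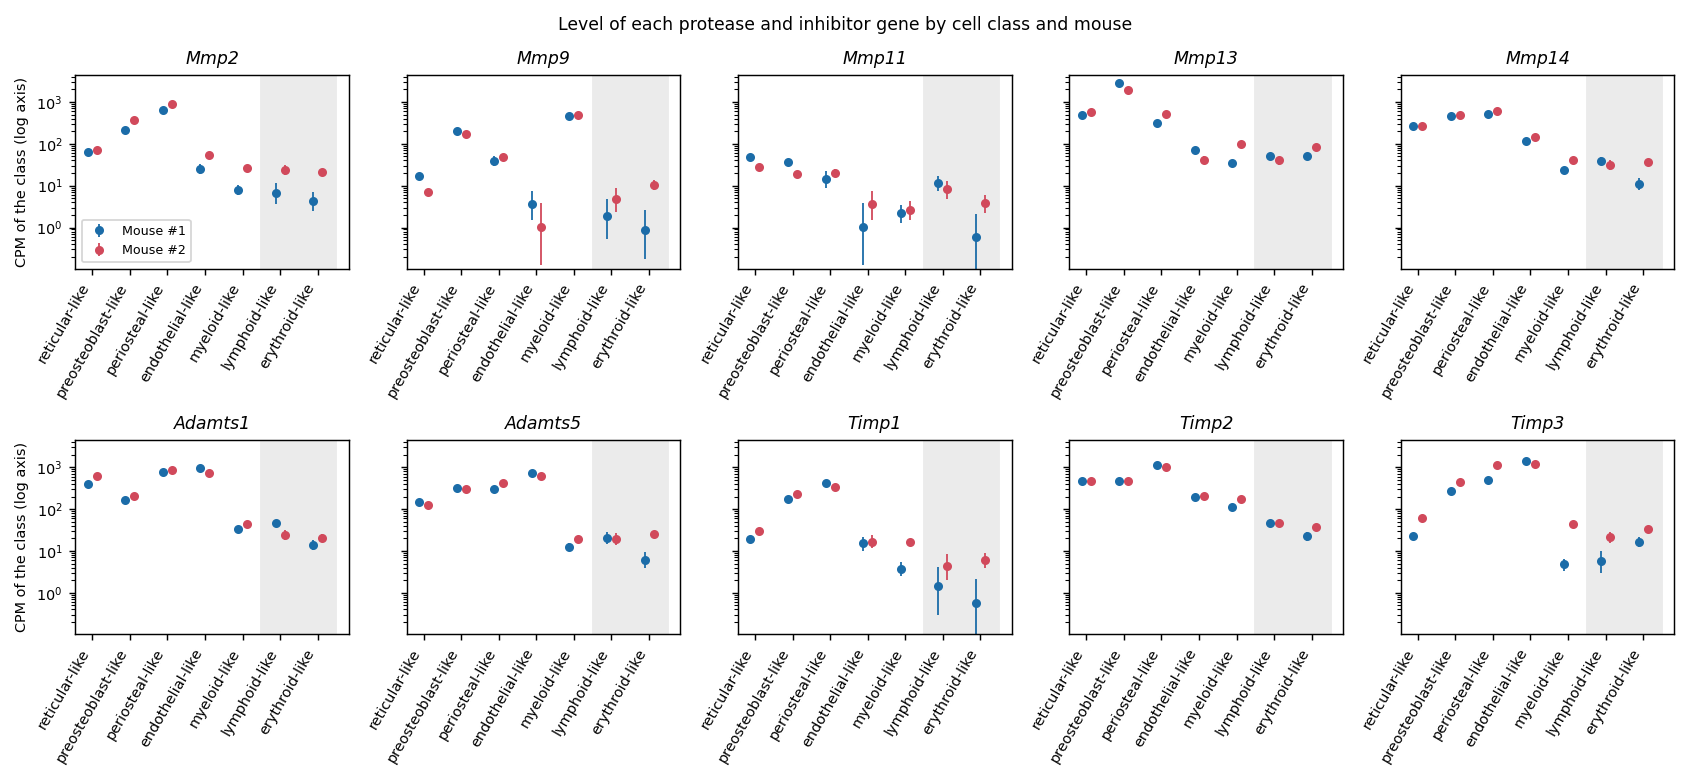
Level of each of the 10 genes (y axis, CPM, log axis) in 7 cell classes (x axis), with 1 point per mouse and bars for the exact 95% Poisson interval of the summed UMIs, which covers counting error only. Grey marks the lymphoid-like and erythroid-like classes used as background. Mmp13 peaked in preosteoblast-like, Mmp2, Mmp14, Timp1 and Timp2 in periosteal-like, Adamts5 and Timp3 in endothelial-like and Mmp9 in myeloid-like cells.

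**Figure D3:**
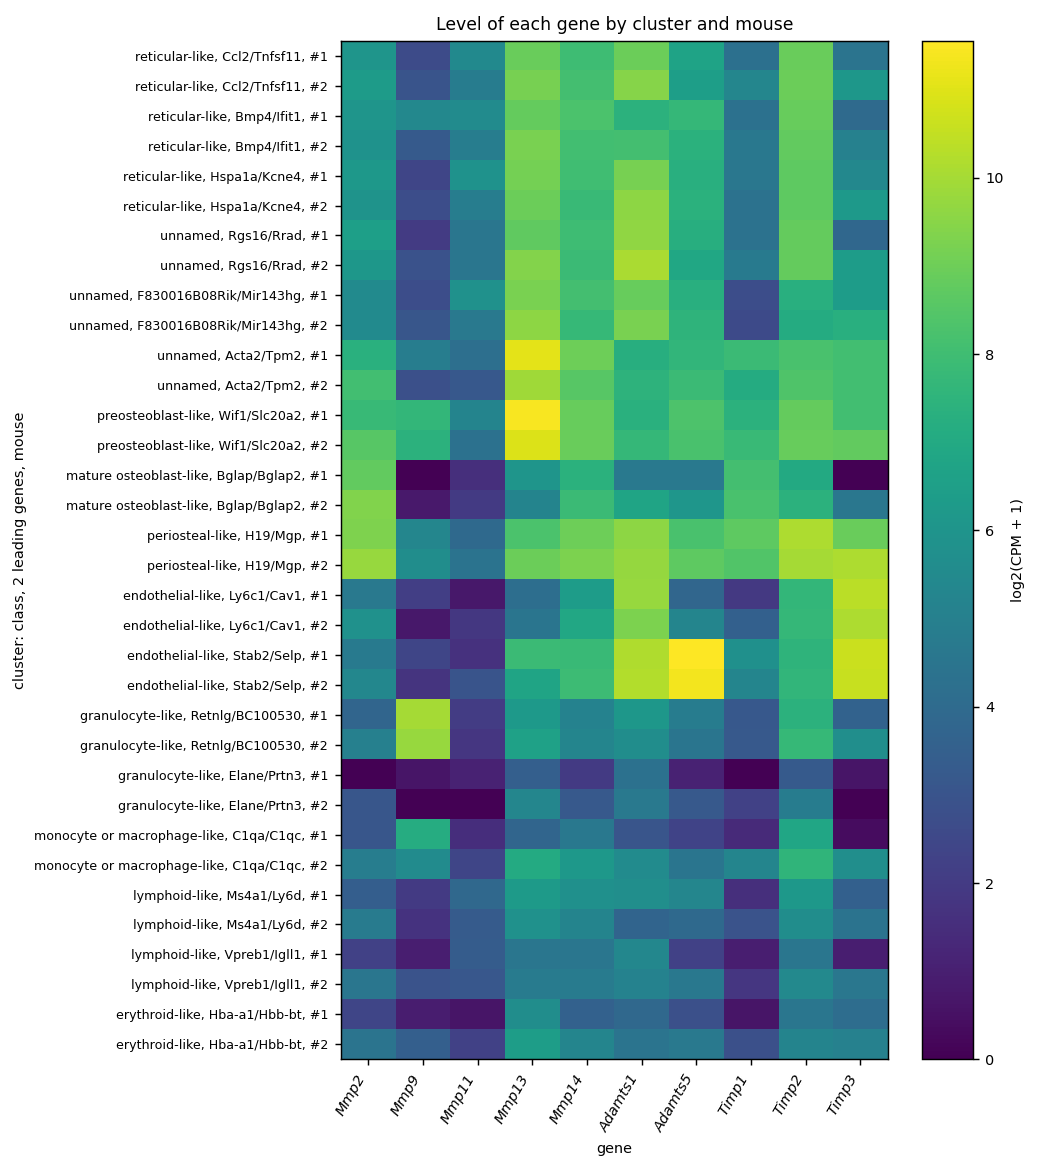
Level of the 10 genes (x axis) in 17 clusters of each mouse (y axis, named by class, the 2 leading genes and the mouse number), with colour for log2(CPM + 1). Adamts5 was bright in the endothelial-like cluster led by Stab2 and dark in the one led by Ly6c1, and Mmp9 was bright in the granulocyte-like cluster led by Retnlg and dark in the one led by Elane.

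MMP14, MMP2 and TIMP2 act together on the cell surface, so cells with a UMI of all 3 genes were counted. After thinning, these were 36.8% (95% Wilson interval 26.9 to 48.1%) and 42.8% (36.6 to 49.3%) of periosteal-like cells. They were 14.1% and 18.0% of preosteoblast-like cells and 2.56% and 4.10% of reticular-like cells. In lymphoid-like cells 0 of 234 and 0 of 235 cells held all 3, with upper Wilson bounds of 1.62% and 1.61%. In erythroid-like cells these were 0 of 114, with an upper bound of 3.26%, and 1 of 135, or 0.741% with an upper bound of 4.08%. Before thinning the shares were 98.7% and 95.7% in periosteal-like, 77.3% and 85.3% in preosteoblast-like and 35.3% and 38.4% in reticular-like cells. Detection of 3 genes at once depends on the level of each, so these shares carry no information on pairing beyond the levels.

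Preosteoblast-like cells had 7 of the 10 genes higher and 1 lower than reticular-like cells. Mmp9, Timp3, Timp1, Mmp13, Mmp2, Adamts5 and Mmp14 were higher, and Adamts1 was lower. Among all 12725 genes tested, 14.4% were called higher and 15.2% lower. The median log2 difference was 1.62 over the 10 genes and 0.00 over all genes. Because the 10 genes were chosen with earlier results of these data known, their counts and medians here and below are a description. Of 11 other ADAMTS proteases tested, 5 were higher and 4 lower, and of 6 other MMPs 2 were higher and none lower. Among the genes of related lists with the largest differences, Adamts18 held 4.64 and 7.87 CPM in preosteoblast-like cells against 0.173 and 0.104 CPM. Adamts17 held 4.78 and 7.46 CPM against 0.693 and 0.276 CPM. Fn1, which encodes fibronectin, was higher by 3.80 ± 0.12 (edgeR adjusted p = 0.000265). Timp4, the remaining member of the inhibitor family, fell from 20.5 and 13.5 CPM to 1.97 and 1.66 CPM. Nid1, a basement membrane glycoprotein gene, was lower by a log2 difference of -1.86 ± 0.15 (edgeR adjusted p = 0.00129), and Adamts4, an aggrecanase, by -1.78 ± 0.40 (edgeR adjusted p = 0.0248). Of 12 activators, receptors and further inhibitors 4 were higher and 2 lower, of 7 ADAM proteases 1 was higher and 1 lower, and of 6 matrix substrates 2 were higher and 3 lower.

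Periosteal-like cells had 8 of the 10 genes higher and none lower than reticular-like cells. Timp3, Timp1, Mmp2, Mmp9, Adamts5, Timp2, Mmp14 and Adamts1 were higher, and Mmp11 and Mmp13 were not called. Among 12056 genes tested, 13.6% were called higher and 10% lower. The median log2 difference was 1.41 over the 10 genes and -0.01 over all genes. Mmp9 was at 38.6 and 49.0 CPM in these cells, and 32 of its 53 UMIs in Mouse #1 came from 1 cell. Its log2 difference was 2.10 ± 0.41 (edgeR adjusted p = 0.0133), and without the cells of highest immediate early share 1.76 (edgeR adjusted p = 0.0781). Of 11 activators, receptors and further inhibitors, 7 were higher and 2 lower. Plat, which encodes tissue plasminogen activator, was at 91.7 and 79.4 CPM against 2.08 and 3.14 CPM, a log2 difference of 5.02 ± 0.21 (edgeR adjusted p = 4.78e-05). Plau, which encodes urokinase, was at 13.8 and 17.5 CPM against 0.693 and 1.35 CPM, and Adamts17 at 3.64 and 8.31 CPM against 0.693 and 0.276 CPM. Lower genes included Timp4, at 0 and 0.860 CPM, and Adamts14, a procollagen processing enzyme, by -1.49 ± 0.28 (edgeR adjusted p = 0.0109). Of 6 other MMPs 2 were higher and none lower, of 10 other ADAMTS proteases 2 were higher and 1 lower, of 6 ADAM proteases 2 and 1, of 6 matrix substrates 2 and none, and of 12 immediate early genes none and 1.

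Endothelial-like cells had 3 of the 10 genes higher and 6 lower than reticular-like cells. Timp3, Adamts5 and Adamts1 were higher, and Mmp11, Mmp13, Mmp9, Timp2, Mmp14 and Mmp2 were lower. Among 12233 genes tested, 26.6% were called higher and 25.6% lower. The median log2 difference was -0.95 over the 10 genes and -0.04 over all genes. Adamts5 differed by 2.28 ± 0.14 (edgeR adjusted p = 3.61e-05). The Adamts1 difference of 0.65 ± 0.22 (edgeR adjusted p = 0.0495) lost its call under 8 of 12 alternatives, where the adjusted p reached up to 0.0690. Mmp2, at 25.2 and 52.9 CPM, differed by -0.85 ± 0.29 (edgeR adjusted p = 0.0440) and lost its call under 5 of 12 alternatives, with an adjusted p of up to 0.198. The Mmp9 difference rested on 7 and 2 UMIs in endothelial-like cells and moved from -2.32 (edgeR adjusted p = 0.0451) to -0.27 (edgeR adjusted p = 0.709) at the finer clustering resolution of 1.0. It also lost its call with scaling by library size. Mmp13 held 69.7 and 40.9 CPM, but 100 of its 133 UMIs in Mouse #1 came from 1 cell. Its log2 difference was -3.30 ± 0.24 (edgeR adjusted p = 6.62e-05), and -4.35 (edgeR adjusted p = 3.75e-05) with the highest cell of each gene left out. Mmp14 differed by -1.05 ± 0.13 (edgeR adjusted p = 0.000877) and Timp2, at 193 and 203 CPM, by -1.27 ± 0.11 (edgeR adjusted p = 0.000146). Timp1, at 15.2 and 16.8 CPM, was not called (edgeR adjusted p = 0.105) but passed with the mouse as a block (-0.67, edgeR adjusted p = 0.0250).

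Among the related lists in endothelial-like cells, 4 of 9 other ADAMTS proteases were higher and 5 lower, and 3 of 11 activators, receptors and further inhibitors were higher and 7 lower. Plaur, the urokinase receptor gene, was at 138 and 131 CPM against 0.520 and 0.760 CPM. Plat was at 81.8 and 101 CPM, a log2 difference of 4.99 ± 0.22 (edgeR adjusted p = 8.90e-06), and Mmp15, a membrane-type metalloproteinase, was at 58.7 and 59.8 CPM against 2.77 and 2.83 CPM, a difference of 4.34 ± 0.15 (edgeR adjusted p = 3.49e-06). The proteoglycan-cutting Adamts15 was at 0.524 and 2.10 CPM against 38.4 and 34.3 CPM, Adamts14 at 1.05 and 0.524 CPM against 11.7 and 13.9 CPM, and Timp4 at 1.05 and 1.05 CPM against 20.5 and 13.5 CPM. Of 6 other MMPs 1 was higher and 3 lower, of 6 ADAM proteases 3 and 2, of 6 matrix substrates 3 and 1, and of 12 immediate early genes 4 and 3.

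Myeloid-like cells had 1 of the 10 genes, Mmp9, higher and 7 lower than reticular-like cells. Among 13066 genes tested, 34.5% were called higher and 35.8% lower. The median log2 difference was -2.07 over the 10 genes and -0.04 over all genes. The lower genes ranged from -3.56 ± 0.32 for Mmp11 (edgeR adjusted p = 0.000172) to -1.27 ± 0.24 for Timp2 (edgeR adjusted p = 0.00374). Timp1 (edgeR adjusted p = 0.180) and Timp3 (edgeR adjusted p = 0.661) were not called, and Timp1 passed with the mouse as a block (-1.06, edgeR adjusted p = 0.00672). In Mouse #2, 52 of the 104 myeloid-like Timp1 UMIs came from 1 cell. With the highest cell of each gene left out, Timp1 was called lower at -1.80 (edgeR adjusted p = 0.0154). It was called under 4 of 12 alternatives. Levels of Mmp13 in myeloid-like cells, 35.5 and 97.7 CPM, overlapped with the 49.9 and 71.0 CPM of lymphoid-like and erythroid-like cells. The neutrophil collagenase gene Mmp8 was at 465 and 572 CPM against 0.693 and 0.380 CPM, Plaur at 236 and 258 CPM against 0.520 and 0.760 CPM, and Adam8, a leukocyte surface protease, at 48.1 and 87.7 CPM against 0.693 and 1.00 CPM. Lower were Adamts12, at 0.367 and 0.154 CPM against 13.2 and 9.19 CPM, Adamts15, at 0.734 and 1.85 CPM against 38.4 and 34.3 CPM, and Timp4, at 1.10 and 0.617 CPM. Of 9 other ADAMTS proteases none was higher and 8 were lower, of 8 other MMPs 2 and 4, of 7 ADAM proteases 1 and 2, of 11 activators, receptors and further inhibitors 3 and 7, of 6 matrix substrates 1 and 5, and of 12 immediate early genes 1 and 11.

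**Figure D4:**
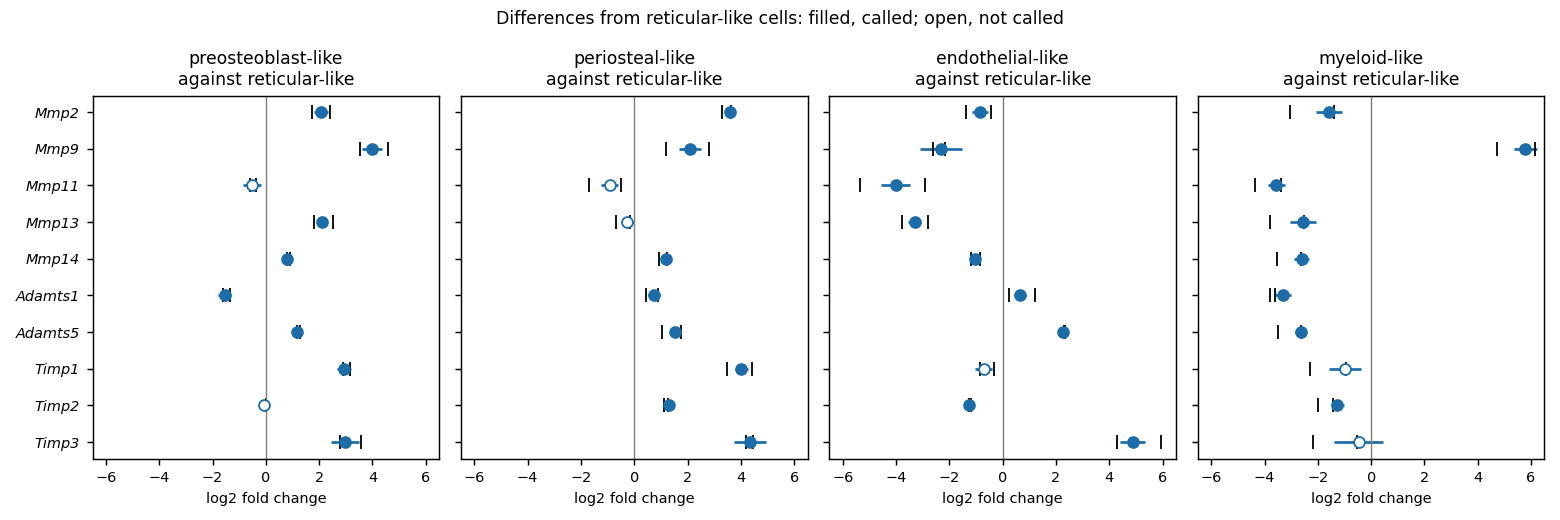
Log2 difference of each gene from reticular-like cells (x axis) in 4 classes, with points and bars for the edgeR estimate ± SE, and black ticks for the ratio within each mouse. Filled points were called and open points were not. Of the 10 genes 7 were called higher in preosteoblast-like, 8 in periosteal-like, 3 in endothelial-like and 1 in myeloid-like cells.

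Reticular-like cells marked by Cxcl12-iCreER were compared with unmarked ones to ask whether they differ in these genes. A cell was tdTomato-positive above the 99th percentile of blood cells of its mouse, 8.63 and 14.6 UMIs per 10000, which gave 371 and 943 positive and 569 and 1403 negative cells. None of the 10 genes was called in either direction, as was the case for all 11979 genes tested, with 0% called higher and 0% lower. At an unadjusted p under 0.05 edgeR had 591 of the 11979 genes, 2 of them members. That share is near the 0.05 that such a threshold passes where no gene differs. DESeq2 called none higher and 3 lower over all genes. Positive cells held 112 and 88.3 CPM of Adamts5 and negative cells 167 and 145 CPM, without overlap, a log2 difference of -0.62 ± 0.12 (edgeR adjusted p = 0.866). Positive cells held 390 and 454 CPM of Mmp13 and negative cells 554 and 631 CPM, also without overlap, a difference of -0.46 ± 0.12 (edgeR adjusted p = 0.866). With the mouse as a block, 1.49% of genes were called higher and 1.34% lower, and these were the members called: Adamts5 at -0.62 ± 0.060 (edgeR adjusted p = 4.01e-05) and Mmp13 at -0.46 ± 0.048 (edgeR adjusted p = 7.60e-05). Positive cells held 483 and 499 CPM of Timp2, negative cells 445 and 445 CPM, and the gene was not called with the block (edgeR adjusted p = 0.0795). Related lists held no called gene without the block. With it, 1 ADAM protease and 1 matrix substrate were lower and 1 immediate early gene was higher.

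The genes whose pattern was most like each member were sought by Pearson's r of log2(CPM + 1) over 32 sums, from 16 clusters in each mouse, among 12541 genes. These points share libraries and depth, so r is a description. Mmp13 was most like Col12a1, a fibril-associated collagen gene (r = 0.973), followed by Efs (0.956) and Shox2 (0.955). Mmp14 was most like Nrep (0.977), Gja1 (0.974), the gene of connexin 43, and Fkbp10 (0.973), a collagen chaperone gene. Mmp2 was most like Mfap2 (0.934), a microfibril gene, Pmepa1 (0.929) and Col5a2 (0.913), and Mmp11 was most like Col27a1 (0.930), Hmgcll1 (0.929) and Eda. For Adamts1 they were Nid1 (0.945), Sema4c (0.938) and Zcchc14 (0.938), and for Adamts5 Chst2 (0.945), Abcc9 (0.934) and Lhfpl2 (0.899). Timp1 was most like Mmp16 (0.934), a membrane-type metalloproteinase gene, Col1a1 (0.923) and Olfml3 (0.921). Timp2 was most like Pltp (0.945), Antxr2 (0.935) and Rin2 (0.931), and Timp3 was most like Hspg2 (0.907), the perlecan gene, C1qtnf1 (0.899) and its overlapping neighbour Syn3 (0.896). Mmp9 had no close partner, with Pla2g7 (0.745), Ptgs2os2 (0.742) and Nt5e (0.738) first. Within the set, r was 0.91 for Mmp2 with Timp1, 0.90 for Mmp2 with Mmp14, 0.90 for Mmp14 with Timp2 and 0.12 for Mmp9 with Timp3.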

How the data were processed

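The authors deposited UMI counts without normalization, which Cell Ranger 3.0.0 made per the file headers. The submitters' processing notes name mm10 and Seurat. The barcodes carried no cell filter. The 10 genes and the related lists were chosen with earlier results of these data known.

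Barcodes entered from 1000 detected genes, with no more than 15% of UMIs mitochondrial. Counts scaled to 10000 were clustered from 2000 variable genes, 30 components and 15 neighbours with the Leiden method (scanpy 1.11.5, leidenalg 0.10.2) at resolution 0.5, leaving out the 10 genes and all list genes. A class needed at least 3 markers raised 1.5 times over the remaining clusters and seen in at least 10% of cells. A cluster stayed unnamed if its leading genes held more markers of another class or held cell cycle genes. It also stayed unnamed if it was shallow with no marker among them, or if classes tied. The Rgs16 cluster raised all 8 reticular markers but had more markers of another class among its leading genes. It was therefore left out of the main tests. Of 17 clusters 14 took a name. These names are not the authors' own, and differences from the study can arise there. Scrublet marked 0.218% and 0.0655% of cells and had not worked, so doublets were kept, and the highest scores were left out as an alternative. Shares were compared at 2000 UMIs per cell, which left out 6 and 21 cells.

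UMI counts summed per mouse and class were tested with edgeR 4.0.16 in R 4.3.3 (quasi-likelihood, TMM, filterByExpr, Benjamini-Hochberg over all genes), a procedure tested on simulated data. The 8 added reporter features stayed in library totals and out of tests. The pairing by mouse comes from the animals, and each mouse's departures from the class averages correlated between the classes compared, with r from 0.137 to 0.479 over genes. The main fits had no block. Alternatives were the block, other scalings, DESeq2 1.42.0, no filter, stricter cell limits, the cells of highest immediate early share left out, another resolution or tdTomato threshold, 1 fit over all classes, and 1 mouse left out. The text names all 10 genes, from the related lists up to 3 called genes per direction and comparison with the largest change, and the 3 genes most like each member. 1 gene that this rule selects is not reported here. Gene positions come from GENCODE vM21 on GRCm38. Wilson and Poisson intervals are at 95%.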

Additional observations from a re-analysis of the deposited data

Results flagged for a closer look

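These values lie outside the comparisons and were above the level in lymphoid-like and erythroid-like cells. Mmp13 in barcodes of 1 to 100 UMIs averaged 900 CPM over the mice, against a mean of 60.5 CPM in lymphoid-like and erythroid-like cells. Mmp2 in mature osteoblast-like cells averaged 544 CPM, against 13.6 CPM in the same background, from 14 and 62 cells. Adamts1 in the unnamed cluster led by Rgs16 averaged 944 CPM, against 23.9 CPM. No value was tested against the background.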

How the results depend on the processing

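The number of the 10 genes called stayed within 1.5 times under every alternative run, except in the tdTomato comparison, where 0 became 2 with the mouse as a block and 3 with no filter on low counts. Leaving out 1 mouse leaves 1 library per class and no residual degrees of freedom, so only ratios within the other mouse were computed. Of these 100 ratios, 66 belong to the 33 called differences and all 66 had the sign of the fit. Of the 34 ratios of uncalled differences 4 had the opposite sign. Over all 100, 30 moved by more than the spread between the mice. Of 590 fold changes recomputed with a test, 549 kept their direction and side of the threshold, 20 lost the call, 18 gained it and 3 uncalled ones changed sign. Those 3, all in the tdTomato comparison, were Mmp2 at 0.00484 without the highest immediate early shares and at 0.00701 with the Rgs16 cluster added, and Timp3 at -0.0344 with a tdTomato threshold of 3 per 10000. The cause was not tested. Scaling by library size alone moved the median over all genes to -0.12 in periosteal-like and -0.46 in myeloid-like cells (log2). Calls then split into 1369 higher and 1626 lower (main 1641 and 1206) and 3160 higher and 6365 lower (main 4512 and 4676). In the tdTomato comparison, calls over all genes numbered 339 with the block, against 0. The block changed no other call of a member than those given above. Adding the Rgs16 cluster, scaling by library size and leaving out the highest cell were chosen after seeing the data. Of 50 shares, 49 moved by more than the spread between the mice without thinning. With 2 mice per class, small differences were not detectable.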
